A study of Papio with 24 samples.

Results

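The genes followed here in cultured fat progenitors of baboon fetuses are best known from bone and cartilage. They are COMP, ACAN, SPP1, TNFRSF11B, SOX9, RUNX2, ALPL and SOX8. They were chosen by symbol, with earlier results of these data known. Each is read by every probe that the platform annotation gives to that symbol alone. This gave 11 probes for 8 genes, out of 48803 probes on the array, which name 18852 genes.

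Adipose-derived stem cells of 8 fetuses were profiled on 24 bead arrays that carry human probes. Each fetus gave 3 arrays, from omental fat (the fat sheet inside the abdomen), from subcutaneous fat of the abdomen and from subcutaneous fat of the femoral region. The 4 control fetuses (control_8009, control_8011, control_9017 and control_9087) had mothers that ate freely, and the 4 restricted fetuses (restricted_2820, restricted_9073, restricted_9075 and restricted_9085) had mothers on a diet cut by 30% during the whole pregnancy. All fetuses were sampled at day 165 of gestation, where term is day 184. In both diet groups 1 fetus was male (control_9017 and restricted_9085) and 3 were female. After collagenase digestion the cells were cultured in 10% fetal bovine serum and frozen. They were later thawed and grown to confluence again, and RNA of 3 wells was pooled for each array. The arrays thus describe undifferentiated cells after culture and freezing, not fat tissue.

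As background, cartilage cells and bone-forming cells descend from mesenchymal progenitors, as fat cells do. SOX9 is the transcription factor that starts the cartilage programme, and the matrix genes ACAN (aggrecan, the large water-binding proteoglycan) and COMP (a pentameric glycoprotein that binds collagen) are among the genes it turns on. RUNX2 starts the bone programme, in which ALPL (an alkaline phosphatase that removes pyrophosphate, an inhibitor of mineral) and SPP1 (osteopontin, a secreted phosphoprotein that binds integrins and CD44) act later. TNFRSF11B encodes osteoprotegerin, a secreted decoy receptor that binds the ligand RANKL and so restrains osteoclast formation. SOX8 is a close relative of SOX9 within the same subgroup of SOX factors.

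The arrays of restricted_2820 stood apart: within each depot they had the lowest mean signal (148, 150 and 161) and the lowest mean correlation with the other arrays (0.979, 0.971 and 0.979 in omental, abdominal and femoral cells). Markers were read before the genes themselves. Of 10 progenitor markers, 7 were detected on at least 4 arrays, and THY1, DLK1 and PDGFC on no array. Of 6 osteoblast markers, SP7, DMP1, MEPE and PHEX were detected on no array, BGLAP (osteocalcin) on 21 and IBSP on 3, and the summed osteoblast signal lay between 133 and 157 over all groups. Of 7 chondrocyte markers, 4 were detected on at least 4 arrays, and their summed signal lay between 183 and 462. HAPLN1 was the only chondrocyte marker detected on all 24 arrays and weighed most in that sum (mean log2 level 6.49). Nothing was subtracted in the marker sums, so undetected probes add their background level. In the macrophage and blood list, CD14 and CD68 were detected on all 24 arrays, while PTPRC, CSF1R, AIF1, CD163, TYROBP and ITGAM were detected on none. The mesothelial list differed by depot: its summed signal was 690 to 937 in omental control and 445 to 1214 in omental restricted cells, 205 to 264 and 290 to 501 in abdominal control and restricted cells, and 169 to 201 and 182 to 269 in femoral control and restricted cells. In abdominal cells the diets did not overlap for this list. Its members MSLN and ITLN1 were detected on no array.

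Levels are given as log2 normalised intensity, and a level of one probe cannot be set against that of another probe. A probe counts as detected on an array where its deposited detection p was under 0.05. Probes detected on at least 4 arrays were tested, and this kept 16933 probes in all and 8 probes of 7 of the skeletal genes. RUNX2 dropped out: its probe ILMN_1716651 was detected on 0 of 24 arrays, with log2 levels of 4.25 to 4.53, and its probe ILMN_2377746 on 3 of 24, with log2 levels of 4.39 to 4.77. Those 3 were the abdominal array of control_8009 and the femoral arrays of control_8011 and restricted_9075. RUNX2, the factor that opens the bone programme, was thus not well above background on most arrays of any group. A second SPP1 probe, ILMN_2374449, was detected on 3 omental arrays (control_8009, control_9087 and restricted_2820) and was not tested.

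**Figure D1:**
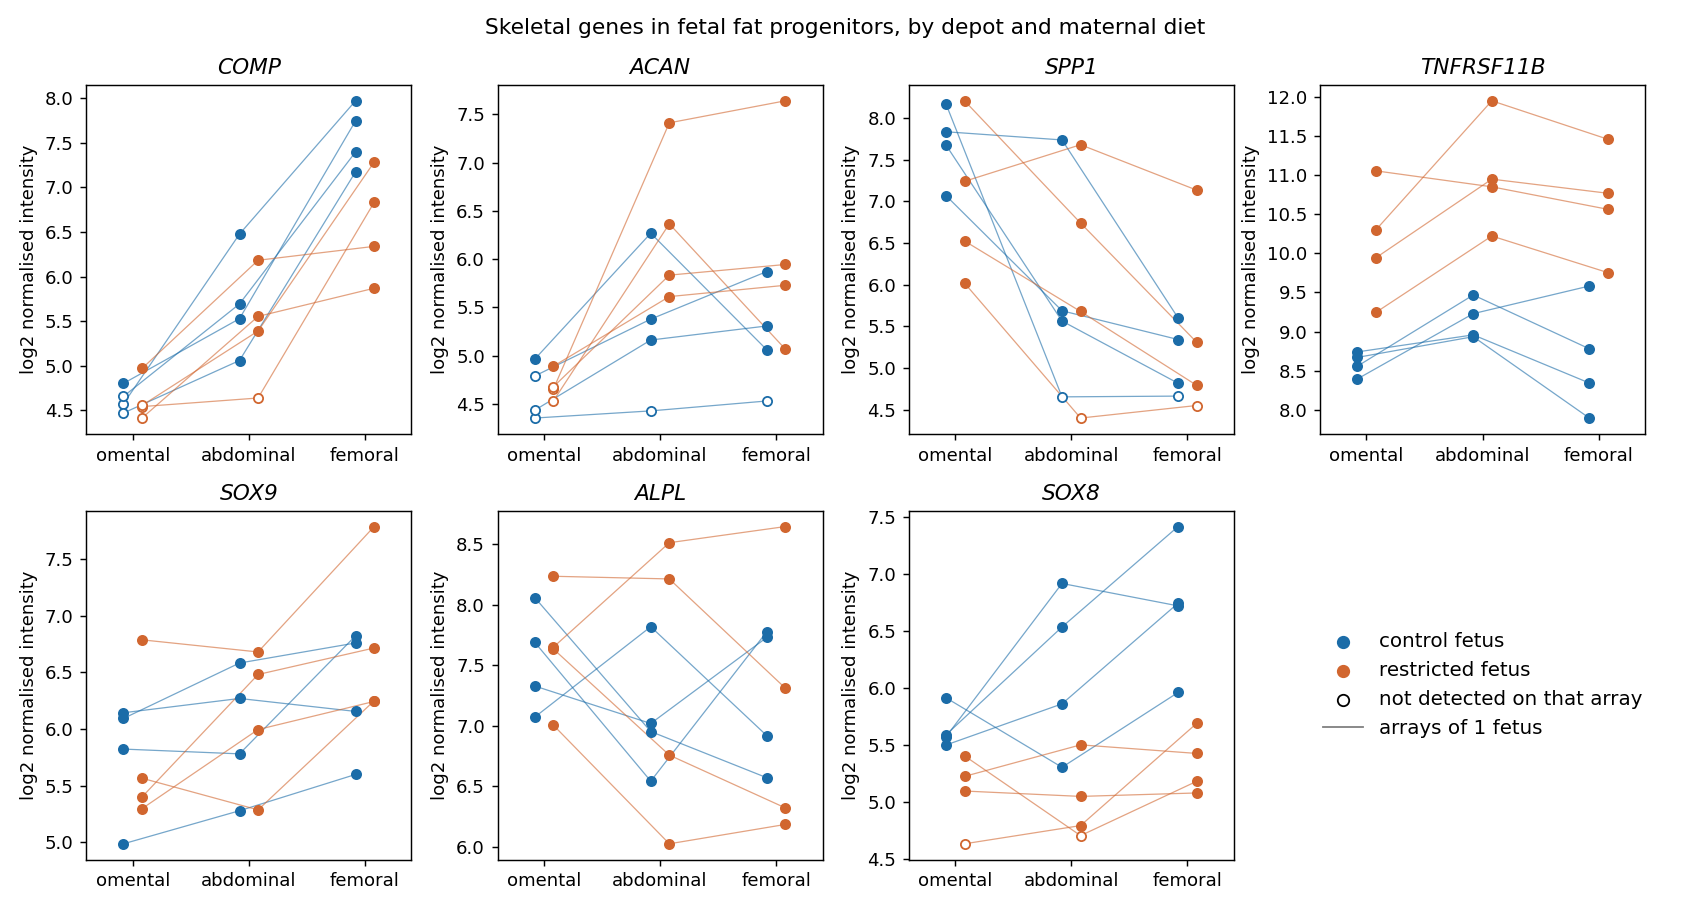
Log2 normalised intensity (vertical axis of each panel) of the 7 tested genes in omental, abdominal and femoral progenitors (horizontal axis), 1 point per array, with lines joining the 3 arrays of a fetus, blue for control and orange for restricted fetuses, and open points where the probe was not detected. COMP climbs from the omental to the femoral depot in every fetus, SPP1 is higher in omental than in femoral cells in every fetus, and the orange points of TNFRSF11B lie above the blue ones in each depot.

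COMP separated the depots most clearly among these genes: it was lowest in omental cells, intermediate in abdominal cells and highest in femoral cells. It was detected on 2 of 8 omental arrays, 7 of 8 abdominal arrays and all 8 femoral arrays. On omental arrays the log2 level had a lowest value of 4.41, a median of 4.56 and a highest value of 4.97. Abdominal arrays ran from 4.64 over a median of 5.54 to 6.48. Femoral arrays ran from 5.87 over a median of 7.23 to 7.97. Omental and femoral arrays did not overlap, and all 8 fetuses held the same order of the 3 depots.

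The depot comparisons were fitted with limma on 16 arrays at a time, with a term for diet and none for the fetus. Benjamini-Hochberg adjustment was over all tested probes. An adjusted p under 0.05 was called a change. The omental comparisons share the omental arrays, and each pair of comparisons shares a depot. COMP was 5.48-fold lower in omental than in femoral cells (log2 difference -2.45 ± 0.21, SE, 8 arrays per depot, adjusted p = 6.16e-07 by limma). Against abdominal cells it was 1.92-fold lower (-0.94 ± 0.20, SE, adjusted p = 0.0135 by limma). Abdominal cells in turn were 2.85-fold lower than femoral cells (-1.51 ± 0.26, SE, adjusted p = 0.0363 by limma). In bulk samples, fewer cells of a type and less RNA per cell cannot be told apart. The femoral excess over omental cells held in every alternative in which COMP was tested. Its size depended on the processing: omental minus femoral ran from -2.87 to -1.55 (log2) over the alternatives. With COMP detected on 2 of 8 omental arrays, the fold is not an exact ratio. The call between abdominal and femoral cells was lost without any one of control_8009, control_8011, control_9017, control_9087, restricted_9073 and restricted_9085 (adjusted p of 0.0792 to 0.195 by limma), and with the series matrix values (0.139) or no filter on dim probes (0.131). The call between omental and abdominal cells was lost with the series matrix values (adjusted p = 0.0701).

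ACAN followed the same split between omental and subcutaneous cells but did not separate the subcutaneous depots. Its brighter probe was detected on 2 of 8 omental, 7 of 8 abdominal and 7 of 8 femoral arrays. Omental log2 levels ran from 4.36 over a median of 4.67 to 4.96. Abdominal levels ran from 4.43 over a median of 5.72 to 7.41, and femoral levels from 4.53 over a median of 5.52 to 7.64. All 8 fetuses had a lower ACAN level in omental cells than in either subcutaneous depot, although the ranges overlapped. Fetus control_9017 had this brighter probe detected in no depot, although the second ACAN probe was detected in all 3. For the brighter probe, restricted_9075 had the highest value in both subcutaneous depots.

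The ACAN difference was -1.15 ± 0.28 (SE, log2) for omental minus abdominal cells, 2.21-fold lower, with adjusted p = 0.0254 by limma. For omental minus femoral cells it was -0.98 ± 0.29 (SE, log2), 1.98-fold lower, with adjusted p = 0.0392 by limma. The subcutaneous depots differed by 0.16 ± 0.36 (SE, log2, abdominal minus femoral), which did not pass (adjusted p = 1 by limma). Both omental calls were lost with an offset of 50, with the series matrix values and with no filter on dim probes. The first was also lost without restricted_9085, control_9087, restricted_2820 or control_8009 (adjusted p of 0.0579 to 0.072), and the second without restricted_9085, control_9087, control_8009 or restricted_9073 (0.085 to 0.109). The second ACAN probe, ILMN_1777182, was detected on 23 arrays at log2 levels of 4.81 to 5.44 and showed no such split: its omental minus abdominal difference was -0.09 ± 0.08 (SE, adjusted p = 0.618 by limma). The ACAN result therefore holds for 1 of the 2 probes of the gene.

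**Figure D2:**
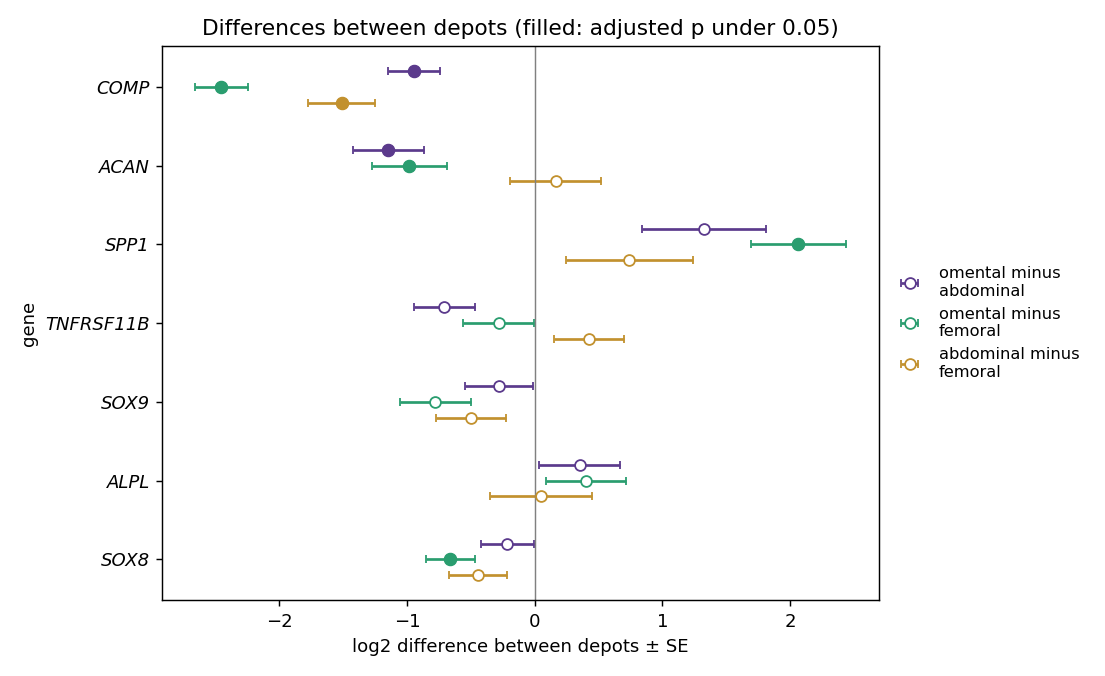
Log2 difference between depots with its standard error (horizontal axis) for the 7 tested genes (vertical axis) in the 3 depot comparisons, 8 arrays per depot, with filled points where the adjusted p was under 0.05. COMP is filled in all 3 comparisons, ACAN in both omental ones, and SPP1 and SOX8 in omental minus femoral alone, SPP1 on the positive side.

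SPP1 ran the other way, with its highest levels in omental cells. Its brighter probe was detected on all 8 omental arrays and on 6 of 8 arrays of each subcutaneous depot. Omental log2 levels ran from 6.02 over a median of 7.46 to 8.21. Abdominal levels ran from 4.40 over a median of 5.68 to 7.74, and femoral levels from 4.55 over a median of 5.06 to 7.13. Every fetus had more SPP1 signal in omental than in femoral cells, and 7 of 8 had more in omental than in abdominal cells. The exception was restricted_2820, at 7.24 in omental and 7.68 in abdominal cells.

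SPP1 was 4.19-fold higher in omental than in femoral cells (log2 difference 2.07 ± 0.37, SE, adjusted p = 0.00137 by limma), and this call held in every alternative in which the probe was tested. The size of the difference ran from 1.41 to 2.52 (log2) over the alternatives. Omental minus abdominal was 1.32 ± 0.49 (SE, log2) and did not pass (adjusted p = 0.153 by limma). It passed with the fetus as a replicate block (adjusted p = 0.0368). Abdominal minus femoral was 0.74 ± 0.50 (SE, log2, adjusted p = 1 by limma). Thus the order of depots for SPP1 was omental, abdominal, femoral, and neighbours in that order did not differ beyond their spread in the unblocked fit. The dimmer SPP1 probe was detected on omental arrays alone, at log2 levels of 4.85, 4.95 and 5.02 there. The summed mesothelial markers given above were also highest in omental cells, although omental and abdominal restricted cells overlapped. The summed progenitor markers were lower in omental than in femoral cells, at 4964 to 5550 against 9331 to 10365 in control cells. In restricted cells they were 5083 to 7256 against 7843 to 9926, and abdominal restricted cells, at 6274 to 11648, overlapped the omental ones. CD44, also a receptor for osteopontin, was the brightest probe of this list (mean log2 level 11.22) and weighs most in the sum. Endothelial markers were also lower, at 166 to 193 in omental and 281 to 371 in femoral control cells, and at 167 to 264 and 314 to 419 in restricted cells, with CDH5 detected on no array. The summed adipocyte markers were higher in omental than in femoral cells, at 1259 to 1854 against 591 to 875 in control and 691 to 1430 against 302 to 572 in restricted cells. Of this list, PLIN1 and LPL were detected on no array and ADIPOQ on 2. PPARG was its brightest probe (mean log2 level 8.97 over all arrays) and weighs most in the sum. The part of these marker lists in the COMP, ACAN and SPP1 differences was not tested.

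SOX9, the factor upstream of ACAN and COMP in cartilage, was detected on all 24 arrays. Its log2 levels ran from 4.99 over a median of 5.69 to 6.79 in omental cells, from 5.28 over 6.13 to 6.68 in abdominal cells, and from 5.60 over 6.48 to 7.78 in femoral cells. The depots overlapped, yet each of the 8 fetuses had less SOX9 signal in omental than in femoral cells. The omental minus femoral difference was -0.78 ± 0.28 (SE, log2) and did not pass in the unblocked fit (adjusted p = 0.0928 by limma). With the fetus as a replicate block it passed (adjusted p = 0.000567). It also passed with sex in the model (0.0446) and without restricted_2820 (0.0277). Omental minus abdominal (-0.28 ± 0.26, SE, adjusted p = 0.68 by limma) and abdominal minus femoral (-0.50 ± 0.28, SE, adjusted p = 1 by limma) did not pass. Fetus restricted_2820 had the highest SOX9 level in each depot, at 6.79, 6.68 and 7.78, and control_9017 the lowest, at 4.99, 5.28 and 5.60.

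SOX8 was detected on 22 of 24 arrays and was lower in omental than in femoral cells. The omental levels ran from 4.63 over a median of 5.45 to 5.91, the abdominal levels from 4.70 over 5.40 to 6.91, and the femoral levels from 5.08 over 5.82 to 7.41. In 6 of 8 fetuses SOX8 had the lower value in omental cells. The difference was -0.66 ± 0.19 (SE, log2), 1.58-fold lower, with adjusted p = 0.0357 by limma. It was lost with an offset of 50, with the series matrix values, with no filter on dim probes, and without control_8009, control_9017, control_9087, restricted_9073 or restricted_9085 (adjusted p of 0.05 to 0.126). The other pairs of depots did not pass for SOX8 (adjusted p = 0.687 and 1 by limma).

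Neither ALPL nor TNFRSF11B passed between depots in the unblocked fits. ALPL was detected on all 24 arrays, with depot means of 7.58 ± 0.44 (SD, n = 8) in omental, 7.23 ± 0.86 in abdominal and 7.18 ± 0.84 in femoral cells, and its 3 depot differences of 0.35, 0.40 and 0.05 (log2) were within the spread. TNFRSF11B was also detected everywhere, with depot means of 9.36 ± 0.97 (SD, n = 8), 10.07 ± 1.10 and 9.64 ± 1.25. Omental minus abdominal was -0.71 ± 0.24 (SE, log2) for TNFRSF11B, lower in 7 of 8 fetuses (adjusted p = 0.114 by limma). It passed with the fetus as a replicate block (0.026) and without the abdominal array of restricted_9073 (0.0493). The other TNFRSF11B depot differences were -0.28 and 0.43 (log2).

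Across the 7 tested genes, 2 were called in omental minus abdominal cells, where 4.62% of all tested probes were called. Both were lower in omental cells, as were 2.13% of all tested probes, and 0 were higher, against 2.49%. In omental minus femoral cells 4 were called, against 10.9% of all tested probes. Of these, 3 were lower in omental cells, against 5.6% of all tested probes, and 1 was higher, against 5.33%. In abdominal minus femoral cells COMP was the 1 call, against 0.0768% of all tested probes, which is 13 probes. It was lower in abdominal cells, as were 0.0532% of all tested probes, and 0 were higher, against 0.0236%. The depots did not overlap for 0, 1 and 0 of the 7 genes, against 0.738%, 2.4% and 0.112% of all tested probes. The direction was the same in all 8 fetuses for 2, 4 and 1 of the 7 genes in these comparisons, against 8.42%, 11.1% and 1.49% of all tested probes. The median difference of the 7 genes was -0.28, -0.66 and 0.05 (log2), and that of all tested probes was 0.00 in each comparison. These genes were chosen with earlier results of these data known. Their counts here and between diets are descriptions and cannot test for an excess over all tested probes.

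The question of the study was whether the maternal diet acts on these cells in a way that depends on the depot. None of the 7 genes passed between diets in any depot, and the limma fits called 0% of all tested probes in each depot and 0.00591%, which is 1 probe, on the fetus means over 3 depots. At an unadjusted p under 0.05, 2 of the 7 genes differed in omental, 2 in abdominal and 3 in femoral cells and 2 on fetus means, where 4.75%, 4.87%, 6.2% and 6.21% of all tested probes did. The values below are therefore differences that failed the correction.

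TNFRSF11B had the widest gap between diets among these genes. In omental cells its log2 levels were 8.39, 8.67, 8.56 and 8.74 in control_8009, control_8011, control_9017 and control_9087, and 10.30, 9.24, 11.05 and 9.94 in restricted_2820, restricted_9073, restricted_9075 and restricted_9085. In abdominal cells they were 9.23, 8.93, 9.47 and 8.96 in the control fetuses and 11.95, 10.22, 10.85 and 10.95 in the restricted fetuses, in the same order. In femoral cells they were 9.58, 7.90, 8.78 and 8.34 in the control and 11.46, 9.75, 10.56 and 10.77 in the restricted fetuses. All restricted arrays lay above all control arrays within each depot. The lowest restricted value was that of restricted_9073 each time.

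Restricted minus control was 1.54 ± 0.32 (SE, log2) for TNFRSF11B in omental cells, 2.92-fold higher (4 fetuses per diet, adjusted p = 0.614 by limma). In abdominal cells it was 1.84 ± 0.32, 3.59-fold higher (adjusted p = 0.557), and in femoral cells 1.98 ± 0.41, 3.96-fold higher (adjusted p = 0.528). On fetus means the levels were 10.59 ± 0.63 (SD, n = 4) in restricted and 8.80 ± 0.25 in control fetuses, a difference of 1.79 ± 0.29 (SE, adjusted p = 0.358 by limma). It was called in 2 alternatives. Without restricted_9073 the difference was 2.07 (adjusted p = 0.0435 by limma). With all 24 arrays in one fit and the fetus as a random replicate block, the adjusted p was 0.00332 by limma. The random block takes the same correlation between arrays of a fetus, 0.254, for all tested probes. Its p-values therefore do not rest on the spread between fetuses of each gene alone. Over the other alternatives for the fetus means the adjusted p ran up to 0.919. The summed macrophage and blood markers ran from 349 to 1214 in abdominal restricted cells and from 363 to 397 in abdominal control cells, so the diets overlapped. Of this list only CD14 and CD68 were detected on any array. The summed adipocyte markers of femoral cells, in which PPARG weighs most, were 302 to 572 in restricted and 591 to 875 in control fetuses. The summed mesothelial markers of abdominal cells were 290 to 501 in restricted and 205 to 264 in control fetuses. The part of these lists in the diet differences of TNFRSF11B, SOX8 and COMP was not tested.

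SOX8 had its higher levels in control fetuses, although no test passed. In omental cells its log2 levels were 5.57, 5.91, 5.50 and 5.59 in control_8009, control_8011, control_9017 and control_9087, and 5.40, 4.63, 5.09 and 5.22 in restricted_2820, restricted_9073, restricted_9075 and restricted_9085. In abdominal cells they were 6.91, 5.30, 5.86 and 6.53 in control and 4.70, 4.79, 5.05 and 5.50 in restricted fetuses, in the same order. In femoral cells they were 6.72, 5.96, 6.74 and 7.41 in control and 5.18, 5.69, 5.08 and 5.42 in restricted fetuses. The diets did not overlap in omental and femoral cells, and in abdominal cells restricted_9085 lay above control_8011. SOX8 was not detected on the omental array of restricted_9073 or the abdominal array of restricted_2820.

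The SOX8 difference, restricted minus control, was -0.55 ± 0.17 (SE, log2) in omental, -1.14 ± 0.34 in abdominal and -1.37 ± 0.27 in femoral cells (adjusted p = 0.981, 0.955 and 0.528 by limma). On fetus means it was -1.02 ± 0.17 (SE, 4 fetuses per diet), 2.03-fold lower, with adjusted p = 0.381 by limma. With all arrays and a random replicate block the adjusted p was 0.0639. Of 5 Schwann and neural markers, SOX10 was detected on 6 arrays and ERBB3 on 7, while S100B, GFAP and NGFR were detected on none. Their summed signal reached 179 in femoral control and 189 in femoral restricted cells and at most 122 in the other groups, and its part in the SOX8 levels was not tested.

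**Figure D3:**
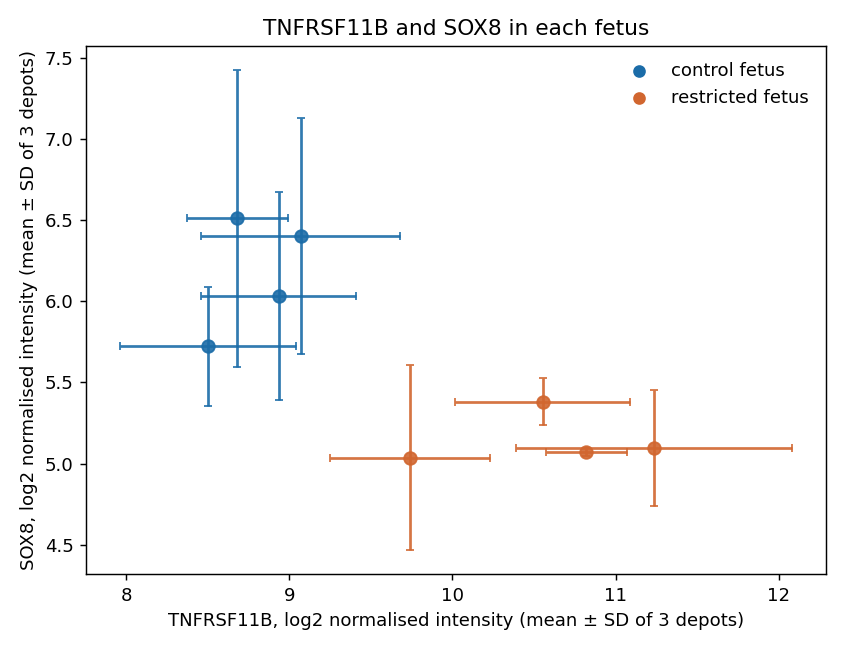
Mean log2 normalised intensity of TNFRSF11B (horizontal axis) and SOX8 (vertical axis) over the 3 depots of each fetus, with bars of 1 SD over the depots, blue for 4 control and orange for 4 restricted fetuses. Restricted fetuses lie to the right (10.59 against 8.80 for TNFRSF11B) and below (5.15 against 6.17 for SOX8) the control fetuses, with no overlap of the fetus means on either axis.

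For the cartilage matrix genes, restricted minus control was below 0 for COMP and above 0 for ACAN in subcutaneous cells, and neither passed. Femoral COMP was 7.97, 7.40, 7.17 and 7.75 (log2) in control_8009, control_8011, control_9017 and control_9087, and 6.34, 6.83, 5.87 and 7.28 in restricted_2820, restricted_9073, restricted_9075 and restricted_9085. The difference was -0.99 ± 0.29 (SE, log2, adjusted p = 0.73 by limma), and restricted_9085 lay above control_9017. Abdominal and omental COMP differed by -0.25 ± 0.36 and -0.01 ± 0.13 (SE, log2).

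ACAN was 1.00 ± 0.46 (SE, log2) higher in restricted abdominal cells and 0.90 ± 0.50 higher in restricted femoral cells, with adjusted p = 0.955 and 0.831 by limma. The highest values, 7.41 and 7.64, were both of restricted_9075, and without that fetus the ACAN differences were 0.63 and 0.39. The second ACAN probe, ILMN_1777182, gave 0.08 ± 0.08 and -0.06 ± 0.11. In omental cells, where 2 arrays detected the brighter probe, the difference of that brighter probe was 0.05 ± 0.15.

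SOX9, SPP1 and ALPL did not pass between diets either. The SOX9 differences were 0.00, 0.13 and 0.41 (log2) in omental, abdominal and femoral cells, with standard errors of 0.36, 0.35 and 0.38, and without restricted_2820 they were -0.34, -0.057 and 0.068. SPP1 differed by -0.69 ± 0.43, 0.21 ± 0.79 and 0.34 ± 0.51 (SE, log2), and ALPL by 0.09 ± 0.27, 0.29 ± 0.54 and -0.13 ± 0.52. Without restricted_2820 the ALPL differences were 0.30, 0.74 and 0.18. None of these exceeded the spread between fetuses (adjusted p of 0.892 or more by limma).

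**Figure D4:**
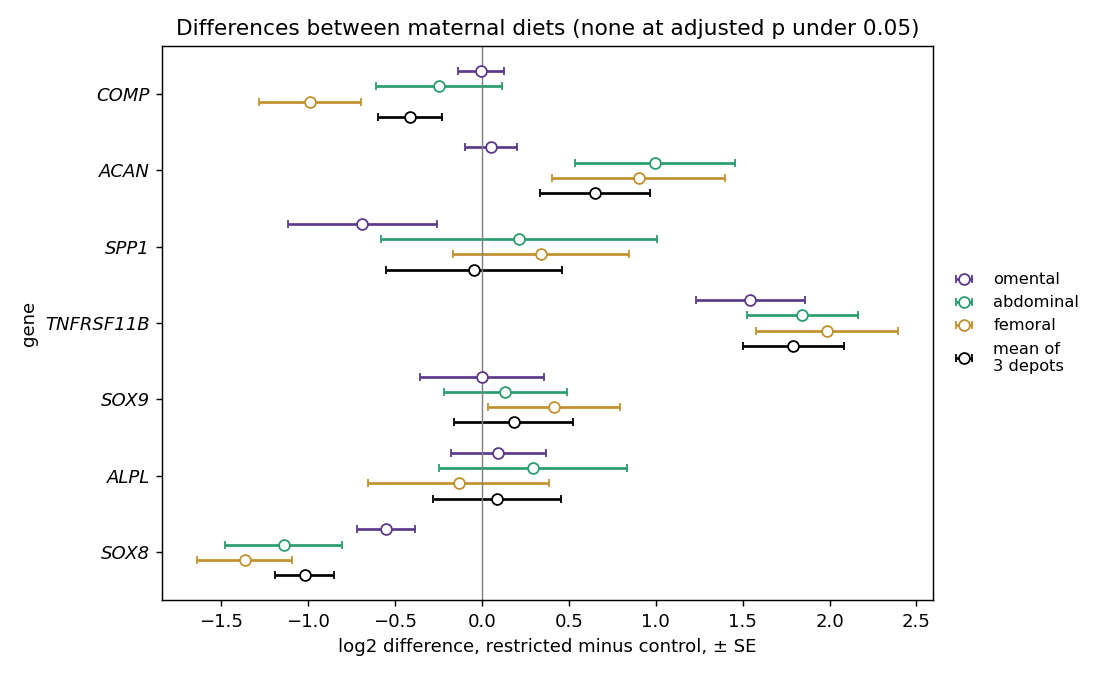
Log2 difference, restricted minus control, with its standard error (horizontal axis) for the 7 tested genes (vertical axis) in each depot and on fetus means over 3 depots, 4 fetuses per diet. TNFRSF11B lies between 1.54 and 1.98 and SOX8 between -0.55 and -1.37 in the depots, and no point passed an adjusted p of 0.05.

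Groups of different diet did not overlap for 2 of the 7 genes in omental, 1 in abdominal and 2 in femoral cells and 2 on fetus means, against 2.82%, 3.14%, 3.89% and 3.59% of all tested probes. The genes in question were TNFRSF11B in all 4 and SOX8 in omental and femoral cells and on fetus means. Whether a diet difference was unequal between depots was tested with interaction terms, 21 tests for the 7 genes and 3 pairs of depots. None passed with limma (the smallest adjusted p was 1 when rounded), and 0% of all tested probes were called. Of these, 2 had an unadjusted p under 0.05: COMP, with an omental minus femoral interaction of 0.99 ± 0.34 (SE, log2), and SOX8, with 0.81 ± 0.34. The shares of all tested probes with an unadjusted p under 0.05 were 1.95%, 2.32% and 1.9% in the 3 interactions. Omental COMP was detected on 1 of 4 arrays in each diet, so a lower omental level in restricted cells could not have been seen, and the COMP interaction restates its femoral difference.

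The genes differed in where their spread over the 24 arrays lay. For COMP, 80.1% of the sum of squares was between depots and 3.38% between diets. For TNFRSF11B, 68.7% was between diets, 14.9% between fetuses of a diet and 7.25% between depots. SOX8 had 50.4% between diets and 14.6% between depots. SOX9 and ALPL were instead marked by the fetus, with 59.2% and 55.4% of their spread between fetuses of a diet. SPP1 had 46.3% between depots and 34.1% between fetuses of a diet, and ACAN 33.7% and 26.9%.

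**Figure D5:**
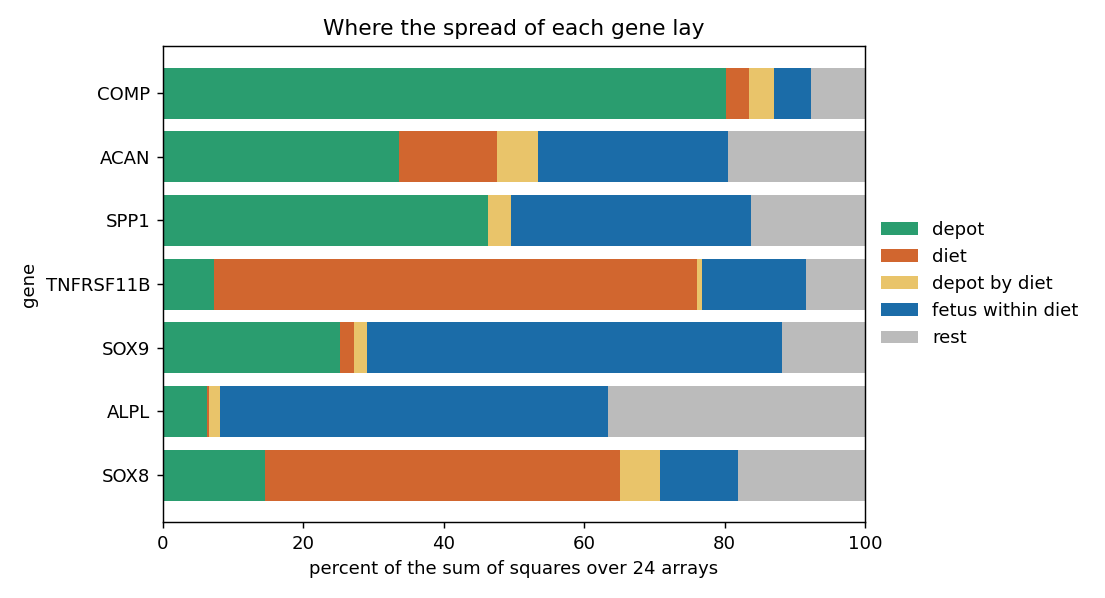
Share of each gene's sum of squares over 24 arrays (horizontal axis, percent) that lay between depots, between diets, in the depot by diet term, between fetuses of a diet and in the rest, for the 7 tested genes (vertical axis). COMP is mostly depot (80.1%), TNFRSF11B mostly diet (68.7%), and SOX9 and ALPL mostly fetus (59.2% and 55.4%).

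Some values at the edge of a depot came from the same fetus. ALPL was lowest in restricted_2820 in every depot, at 7.01, 6.02 and 6.18 (log2), where SOX9 was highest. The arrays of this fetus had the lowest signal, as given above, and the part of this in the SOX9 and ALPL levels was not tested. ALPL was highest in restricted_9075 in abdominal (8.51) and femoral cells (8.65), and the same fetus had the highest ACAN there and the lowest femoral COMP, 5.87, but it was at no edge for ALPL or ACAN in omental cells (7.65 and 4.65). Over the 24 arrays, after the mean of each depot and diet group was taken out, SPP1 and ALPL had a Pearson correlation of -0.71 and COMP and ALPL of -0.54. These are descriptions over arrays that share fetuses and normalisation.

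Genes whose level was most like that of each skeletal gene were ranked by Pearson correlation over the 24 arrays, which share fetuses and depots. AOX1, TBX15 and EML1 stood closest to COMP (r = 0.89, 0.88 and 0.87). B3GLCT, LGR5 and SERPINI1 stood closest to ACAN (0.86, 0.82 and 0.81), and PDE1C, KCNMA1 and TSHZ2 to SPP1 (0.86, 0.81 and 0.80). VSIG1 had the highest value of all, 0.93 with TNFRSF11B, followed by PGAP4 and GBE1 (both 0.83). The closest to SOX9 were KLHDC9, NHS and HFE (0.85, 0.80 and 0.78), to ALPL MLF2, INA and HNRNPA2B1 (0.84, 0.82 and 0.80), and to SOX8 FIGNL2, FOXD1 and CGGBP1 (0.86, 0.82 and 0.82).

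Counts of called genes in the lists below stand beside the shares of all tested probes called: 2.49% higher and 2.13% lower in omental than in abdominal cells, and 5.33% higher and 5.6% lower than in femoral cells. The lists were also chosen with earlier results of these data known, so these counts are descriptions. Of 15 tested genes of chondrocyte matrix, 3 were called higher and 0 lower in omental than in abdominal cells, and 5 were called higher and 0 lower than in femoral cells. With calls set aside, 10 and 8 of the 15 had the higher mean in omental cells. The list's median differences were 0.07 and 0.05 (log2), against 0.00 for all tested probes. MATN2 (matrilin, a matrix adaptor) was higher by 1.63 and 1.48 (log2, adjusted p = 0.0243 and 0.000248 by limma), and LUM (lumican, a small collagen-binding proteoglycan) by 0.71 and 0.97 (adjusted p = 0.0337 and 5.1e-05). EPYC (epiphycan) was detected on 6 omental and 0 abdominal arrays and was higher in omental cells by at least 1.15-fold (adjusted p = 0.0306). UCMA was 0.30 higher than in femoral cells (adjusted p = 0.0195).

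Of 10 tested chondrocyte regulators, 1 was called in omental minus abdominal cells (higher), where 4.62% of all tested probes were called. In omental minus femoral cells 1 was called higher and 1 lower, against 10.9% of all tested probes called, and the list medians were 0.11 and 0.10 (log2). NKX3-2, a homeobox repressor of the axial skeleton and the spleen and gut mesenchyme, was higher by 5.10 ± 0.58 and 5.27 ± 0.32 (SE, log2, adjusted p = 0.000151 and 1.76e-08 by limma). It was detected on 8 omental, 2 abdominal and 3 femoral arrays. ZNF219, a cofactor of SOX9, was lower by -0.47 in omental minus femoral cells (adjusted p = 0.0242). Of 8 other tested SOX genes, 1 was called in each of these comparisons, against the same 4.62% and 10.9% of all tested probes: SOX12, higher in omental cells by 0.28 and 0.27 (log2).

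Of 12 tested osteoblast regulators, 3 were called lower and 0 higher in omental than in abdominal cells, where 2.13% of all tested probes were lower. Against femoral cells 5 were called lower and 0 higher, where 5.6% of all tested probes were lower. The list medians were -0.13 and -0.10 (log2). TWIST2, which restrains RUNX2, differed by -1.30 and -1.22 (log2, adjusted p = 0.00881 and 0.0083 by limma), and its relative TWIST1 by -0.99 in omental minus abdominal cells (adjusted p = 0.0358). DLX5, a homeobox factor that promotes osteoblasts, was detected on 0 omental, 7 abdominal and 8 femoral arrays and was lower in omental cells, by at least 1.25-fold than in abdominal cells. Its bound against femoral cells was at least 1.498-fold. VDR, the vitamin D receptor, differed by -0.56 in omental minus femoral cells (adjusted p = 0.00545). Of 8 tested osteoblast matrix genes, 0 were called higher and 1 lower than in abdominal cells and 1 was called higher and 2 lower than in femoral cells, against 4.62% and 10.9% of all tested probes called. Their list medians were -0.09 and -0.02, with FBLN1 (fibulin) at -0.72 and -0.95, COL1A2 at -0.24 and TNC (tenascin) at 0.95 in omental minus femoral cells.

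In omental minus femoral cells, where 10.9% of all tested probes were called, 1 of 8 tested mineralisation genes and 1 of 6 tested genes that couple osteoblasts to osteoclasts were called, and in omental minus abdominal cells, against 4.62%, 0 of either. MGP, an inhibitor of calcification, was higher by 2.01 ± 0.49 (SE, log2) in omental than in femoral cells (adjusted p = 0.0119 by limma). CTSK, a collagen-degrading protease of the coupling list to which TNFRSF11B belongs by function, stood at -1.33 ± 0.27 in omental minus femoral cells (adjusted p = 0.00349). The list medians were 0.01 and 0.02 for mineralisation and -0.55 and -0.35 for coupling genes (log2) in the omental comparisons.

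Of 14 tested genes of bone morphogenetic protein signalling, 3 were called higher and 0 lower in omental than in abdominal cells, where 2.49% of all tested probes were higher. Against femoral cells 5 were called higher and 1 lower, where 5.33% of all tested probes were higher and 5.6% lower. The list medians were 0.03 and 0.06 (log2). The ligand BMP2, detected on 8 omental, 4 abdominal and 2 femoral arrays, was higher by 1.37 and 1.52 (adjusted p = 0.0323 and 0.00472 by limma), and the inhibitor SMAD6 by 0.83 and 0.70. BMPR2, a receptor, was higher by 0.49 than in abdominal cells. CHRD (chordin, a secreted antagonist) was detected on 0 omental and 8 femoral arrays and was lower in omental cells by at least 1.55-fold.

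Of 8 tested receptors for osteopontin and COMP, 1 was called higher and 2 lower in omental than in abdominal cells, against 4.62% of all tested probes called. Against femoral cells 2 were called higher and 3 lower, against 10.9% of all tested probes called, and the list medians were 0.11 and 0.00 (log2). CD44 differed by -1.49 and -1.62 (adjusted p = 0.000798 and 1.78e-06 by limma) and the integrin subunit ITGA5 by -0.56 and -0.74. CD36 was detected on 7 omental, 1 abdominal and 0 femoral arrays. It was therefore near background in abdominal cells, with an adjusted p of 0.0162, and was higher in omental than in femoral cells by at least 3.33-fold. ITGA8, an integrin subunit that binds osteopontin, was higher by 1.57 (log2) than in femoral cells. Of 5 tested aggrecan and COMP proteases and their inhibitor, 1 and 2 were called lower in omental cells, against 2.13% and 5.6% of all tested probes, with list medians of -0.11 and -0.16. TIMP3, the inhibitor, led with -1.12 and -1.66 (log2, adjusted p = 0.00483 and 2.86e-07), and ADAMTS1 was at -0.43 in omental minus femoral cells. In abdominal minus femoral cells and in each diet comparison, 0 genes of any of the 10 lists were called by limma.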

How the data were processed

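RNA from 24 cultures (8 fetuses, 3 depots) was read on single-channel Illumina arrays. The authors deposited background-subtracted intensity values per probe with a detection p-value for each, per the file headers, and a series matrix of intensity values that, from the values, were quantile-normalised on a linear scale. Scanner software is not given in the sources used here. Between 13102 and 14994 probes (26.8% to 30.7%) were detected on an array, and precision is limited by how many arrays there are. Of the 48803 probes, 28098 had 1 gene symbol, 13 several and 20692 none, in a platform annotation that can be old. How well the human probes match baboon transcripts was not assessed.

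Values were normalised to the log2 scale with neqc (offset 16) and tested with lmFit and eBayes in limma 3.58.1 (R 4.3.3, statmod 1.5.0), two-sided, with Benjamini-Hochberg adjustment over the 16933 probes detected at p under 0.05 on at least 4 arrays. Some fits, none of them an interaction, were tested on simulated data in which all arrays were independent. Such data cannot show how the unblocked fits behave where arrays of a fetus are alike. Plots used Python 3.11.15, numpy 2.4.6, pandas 2.3.3 and matplotlib 3.10.9. Where no array of a group detected a probe, a bound is given as "at least N-fold": the bright group's mean level over a floor, which averages, array by array in the dim group, either the lowest signal of any detected probe or the probe's own level, whichever was higher. Marker signals are sums of normalised linear intensities over a list, with undetected probes included and no background level subtracted.

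The probe with the highest mean stands for a gene. Of each list, up to 3 called genes with the smallest adjusted p per comparison are named, and the 3 genes most correlated with each skeletal gene. The genes, lists and rules were chosen with earlier results of these data known. Same-numbered arrays come from the same fetus, per the labels, and in 24 of 24 checks an array's deviation from its group mean matched its own fetus best (r = 0.28 to 0.67). The alternatives were another scaling, an offset of 50, the series matrix, other filters, sex, replicate blocks, the mean over a gene's probes, each fetus left out, 1 array that stood apart in earlier results (abdominal, restricted_9073) and, chosen after seeing the data, a diet by depot term. Whether cultures of 1 diet share a culture day is not given. The p-values of the diet comparisons in the main fits measure the spread between these fetuses. The unblocked depot and interaction fits treat the arrays of a fetus as independent, so their spread mixes differences between and within fetuses.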

Additional observations from a re-analysis of the deposited data

Results flagged for a closer look

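Of 64 groups of 4 values examined, 3 held a value that stood apart, about the number that independent groups would give by chance at 1 in 20. These groups share fetuses and are not independent, so that number is only a rough guide. In these 3 cases, fetus means over the 3 depots lay far from the other 3 fetuses of their diet group, by Dixon's ratio of the gap to the range. ACAN in restricted_9075 had a mean log2 level of 6.57, against 5.32 to 5.49 in the other restricted fetuses. SPP1 in control_8009 stood at 7.06, against 5.83 to 6.03 in the other control fetuses. SOX8 in restricted_9085, the male restricted fetus, stood at 5.38, against 5.04 to 5.09 in the other restricted fetuses.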

How the results depend on the processing

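Every alternative that tested the 7 gene-level depot calls kept their direction. Of their 110 alternative values, 78 stayed past the threshold and 32 did not, and no call of COMP or SPP1 between omental and femoral cells was lost in a fit that tested it. Of 480 alternative values for the 32 diet differences, 447 kept direction and side of the threshold, and the 28 for the 2 interactions all did.

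The number of skeletal probes called in omental minus abdominal cells was 2, and it was 1 with an offset of 50 or with no filter on dim probes, 0 with the series matrix or with probes detected on all 24 arrays (a filter that removes COMP, ACAN, SPP1 and SOX8), 4 with the replicate block and 1 to 2 with a fetus left out. In omental minus femoral cells the 4 became 2 with an offset of 50, the series matrix or no filter, 0 with probes detected on all arrays and 2 to 5 with a fetus left out. In abdominal minus femoral cells the 1 became 0 with the series matrix, no filter, probes detected on all arrays or without the abdominal array of restricted_9073, and 0 to 1 with a fetus left out. On fetus means over 3 depots the 0 became 1 with all 24 arrays and the random replicate block, and 0 to 1 with a fetus left out. The cause of these changes was not tested, beyond the filter that removes genes.

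Over all probes, 782 calls in omental minus abdominal cells became 498 with the series matrix, 394 with no filter, 1629 with the replicate block and 346 to 926 with a fetus left out. The 13 in abdominal minus femoral cells became 2 with probes detected on all arrays, 30 with the replicate block and 8 to 13 with a fetus left out. Diet calls, 0 in each depot, became 1 in abdominal cells with the series matrix, 4 in femoral cells with the random replicate block, and with a fetus left out 0 to 2, 0 to 1 and 0 to 5 in omental, abdominal and femoral cells. The 1 call on fetus means became 0 with an offset of 50, the series matrix, probes detected on all arrays or sex in the model, 22 with the random replicate block, and 0 to 3 with a fetus left out. The replicate block changed the call of none of the 7 genes other than SPP1, TNFRSF11B and SOX9.

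Differences that were not called changed sign in some fits. With a fetus left out, restricted minus control ran from -0.042 to 0.16 (log2) for ACAN in omental cells, from -0.12 to 0.064 and -0.50 to 0.019 for COMP in omental and abdominal cells, and from -0.10 to 0.41 and -0.11 to 0.35 for SOX9 in abdominal cells and on fetus means. It ran from -0.11 to 0.30, -0.085 to 0.74, -0.64 to 0.18 and -0.21 to 0.41 for ALPL in omental, abdominal and femoral cells and on fetus means, and from -0.30 to 0.82, -0.22 to 0.64 and -0.43 to 0.35 for SPP1 in abdominal and femoral cells and on fetus means. Abdominal minus femoral ran from -0.074 to 0.23 for ALPL and from -0.016 to 0.042 for the second ACAN probe. Median scaling gave 0.088 for COMP in omental cells, the series matrix gave 0.011 for SPP1 on fetus means, and without the abdominal array of restricted_9073 ALPL was -0.10 (abdominal minus femoral) and abdominal COMP 0.019 (restricted minus control). A slide block was not run, because the headers name no slide. The 32 lost values were all of COMP, ACAN or SOX8. The probes of COMP, ACAN, SOX8 and SPP1 were not detected on every array. SPP1 was detected on 20 of 24, and its call held in every fit that tested it. The part of detection in the lost calls was not tested.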
